A study of Drosophila melanogaster with 9 samples.

Results

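Gene expression in eye imaginal discs of rbf1 mutant Drosophila melanogaster larvae was compared with that in control discs. The comparison used 6 of the 9 arrays of the series: 3 from rbf1 mutant discs and 3 from control discs, chosen by their titles. It covered 11983 genes, each read by 1 probe set, the one with the highest mean over all 9 arrays.

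The eye imaginal disc is the larval epithelium from which the adult eye forms, and the discs came from larvae in the third instar. The control discs carried w1118 with Gal4, and the mutant discs carried the rbf1120a allele with Gal4. The remaining 3 arrays came from discs labelled w1118 psc, which overexpressed PSC, and their levels are given beside some named genes, read against the same 3 control arrays. The labels do not say which Gal4 driver was used, and rbf1120a is known as a hypomorphic allele of Rbf. Each genotype is its own stock, so the allele and other differences of the stock cannot be told apart. The arrays of a group were biological replicates, and their number limits the precision.

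Rbf is the main retinoblastoma family protein of the fly. It binds the transcription factors E2f1 and E2f2 with their partner Dp and holds their target genes down until G1 cyclins and their kinases inactivate it by phosphorylation. Together with the Myb-MuvB proteins it also forms the dREAM complex, which represses differentiation genes. In the eye disc, dividing cells lie ahead of the morphogenetic furrow, and behind it cells pass a further synchronous division or leave the cycle to become photoreceptors and accessory cells.

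Values are log2 intensities, and the median gene stood between 8.11 and 8.21 on each of the 9 arrays. Across genes, Pearson correlations between arrays were 0.986 to 0.996 within the control and rbf1 groups and 0.980 to 0.994 between them, as a description over 11983 genes of shared arrays. Salivary glue genes, which the eye disc is not known to use, differed within both groups: averaged over 6 genes, control 1 to 3 stood at 6.52, 13.10 and 13.03, and rbf1 1 to 3 at 6.40, 11.75 and 7.11. Markers of the eye disc were at 11.06 to 11.17 in control arrays and 11.01 to 11.07 in rbf1 arrays, as a mean of 12 genes. Of those 12 genes 1 passed, toy, a paired-box regulator at the top of the eye gene cascade.

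Rbf itself was measured first. Its level was 9.83, 9.85 and 9.67 in the control arrays and 9.43, 9.51 and 9.31 in the rbf1 arrays. Every rbf1 array lay below every control array, and the PSC arrays at 9.82, 9.96 and 9.63 overlapped the controls. The difference was -0.37 (SE 0.096, limma adjusted p = 0.0479), and the exact two-sided permutation test over arrays gave p = 0.1, the smallest that 3 against 3 allows. Leaving out any single array other than control 3 ended the call, that is control 1, control 2 or any of rbf1 1 to 3, with a highest limma adjusted p of 0.145. Of the 30 measured genes nearest to Rbf, 15 on each side, 2 passed (6.67%), beside 10.2% of all genes. The 2 were CG3704 at 0.34 and CG5273 at -0.25, and the differences of all 30 ran from -0.42 to 0.36.

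Across all 11983 genes, 1226 passed a limma adjusted p of 0.05, which is 10.2%. Of these 756 were higher in rbf1 mutant discs (6.31%) and 470 were lower (3.92%). At least 2-fold changes were made by 110 higher genes (0.918%) and 54 lower genes (0.451%). Most changes were small: 500 of the 756 rises and 318 of the 470 falls were under 1.5-fold, and the median was 0.44 for rises and -0.40 for falls. Changes of at least 4-fold were rare, with 8 rises and 11 falls. The median difference over all genes was -0.0042. With each array centred on its median, 559 genes were higher and 603 lower, so the share of higher calls went from 61.7% to 48.1%.

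The calls depended in part on single arrays. Without rbf1 2 the count was 787, without rbf1 1 860, without rbf1 3 866, without control 1 909, without control 2 961 and without control 3 969. In all, 665 of the 1226 calls held with each of the 6 arrays left out in turn, 453 higher and 212 lower, among them 104 of the 110 higher and 42 of the 54 lower changes of at least 2-fold. Lower calls numbered 301 without control 1, 275 without rbf1 2 and 292 without rbf1 3. With the glue gene mean as a covariate 557 genes were higher and 325 lower. Below, each change named as a rise or fall kept its call with any 1 array left out, with centred arrays and with the glue covariate, unless the text says otherwise. The counts given for a list are those with all arrays, so they include members whose call does not hold in this way. Each count is to be read beside the 6.31% of all genes that were higher and the 3.92% that were lower.

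**Figure D1:**
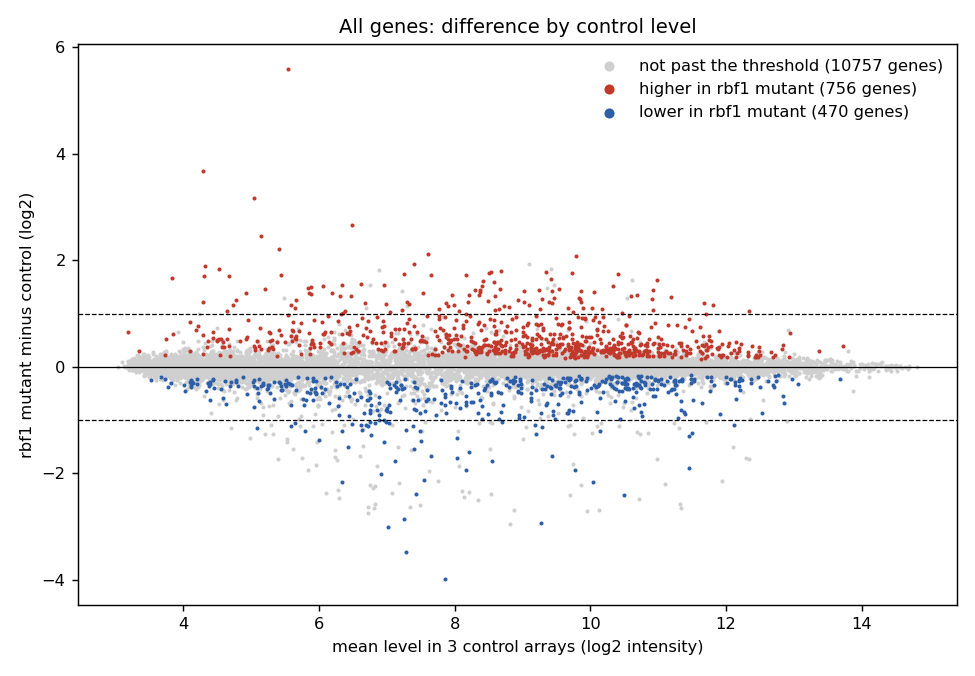
Difference between rbf1 mutant and control discs (y axis, log2) against the mean level in the 3 control arrays (x axis, log2 intensity), 1 point per gene, with dashed lines at 2-fold. The 756 higher genes are dense from the middle levels up, whereas the falls past 2-fold lie mostly at lower levels.

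Rises and falls differed in the level at which they were found. With genes ordered by mean level over 9 arrays and split into 4 groups of equal size, the lowest group reached up to 4.78, and 1 gene rose and 1 fell there by at least 2-fold. In the next group, between 4.78 and 8.15, 41 rose and 41 fell by that much. Between 8.15 and 10.35 the numbers were 48 and 8, and in the highest group 20 and 4. A further 89 genes were at least 2-fold lower and 12 at least 2-fold higher on average without passing, and the glue genes Sgs1 at -2.70 (SE 1.804) and Sgs3 at -2.59 (SE 2.192) were among the former.

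Genes that license and start DNA replication were higher in rbf1 mutant discs as a group. All 11 measured members of the origin licensing list rose, by 0.95 to 1.51, where 6.31% of all genes rose. Their median was 1.27, beside -0.0042 over all genes. In bulk discs, more cells in a state that uses a gene and more RNA of it per cell cannot be told apart. The median member stood 0.02, 0.15 and -0.21 from its control mean in control 1 to 3, at 1.27, 1.35 and 1.32 in rbf1 1 to 3, and at 0.16, 0.28 and -0.02 in the PSC arrays. All 11 members lay above all 6 other arrays in all 3 rbf1 arrays, as did 9.5% of all genes.

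Among these genes, dup, the fly Cdt1 that loads the helicase, stood at 10.37, 10.51 and 10.12 in control arrays and at 11.87, 11.88 and 11.79 in rbf1 arrays. It rose by 1.51 (SE 0.112, limma adjusted p = 0.000116), and the groups were far apart. The origin recognition subunit gene Orc2 stood at 8.44, 8.51 and 8.17 in control arrays and at 9.78, 9.87 and 9.70 in rbf1 arrays, 2.66-fold higher (limma adjusted p = 0.000167). Its PSC arrays, at 8.41, 8.66 and 8.31, overlapped the controls. Orc1 rose by 1.21 from 9.05, 9.21 and 8.82 to 10.30, 10.24 and 10.20, and Cdc6, which recruits the helicase to the origin complex, rose by 0.95 (SE 0.060).

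The measured subunits of the MCM helicase rose, and for each the 3 mutant arrays lay close together. Mcm5 stood at 10.93, 11.12 and 10.71 in control arrays and at 12.38, 12.33 and 12.37 in rbf1 arrays (difference 1.44, SE 0.118, limma adjusted p = 0.000179). Mcm2 stood at 11.19, 11.35 and 11.05 against 12.47, 12.54 and 12.53 (1.32, SE 0.085). The other subunit genes were dpa at 1.35, Mcm3 at 1.27 and Mcm6 at 1.19. In each of these genes control 3 was the lowest control array and control 2 the highest, and the rbf1 arrays lay at least 0.97 above the highest control.

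Of 26 measured replisome and polymerase genes, 22 rose and the other 4 did not pass, with a median of 0.93. The polymerase alpha and primase complex, which makes the first stretch of each new strand, was among them. Its primase gene Prim2 stood at 8.69, 8.65 and 8.20 in control arrays and at 10.33, 10.29 and 10.21 in rbf1 arrays, a rise of 1.77 (SE 0.139, limma adjusted p = 0.000149) or 3.40-fold. PolA1, the catalytic subunit, rose by 1.42 from 9.05, 9.15 and 8.86 to 10.38, 10.39 and 10.55. In both genes the groups were more than 1 log2 unit apart.

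Other parts of the replisome moved unevenly. PCNA, the sliding clamp, stood at 12.42, 12.43 and 12.15 in control arrays and at 13.44, 13.32 and 13.37 in rbf1 arrays (1.04, SE 0.097, limma adjusted p = 0.000324). The members of RPA, the clamp loader and GINS given next, with Cdc45 and PolD3, were chosen after their values were seen. Of the single-strand binding protein RPA, RPA1 rose by 0.68, RPA2 by 0.99 and RPA3 by 0.90, and of the clamp loader RfC3 rose by 0.37, RfC4 by 0.58 and RfC38 by 0.74. The helicase activator Cdc45 rose by 1.21, but the GINS subunits were uneven. Sld5 rose by 1.21 and Psf3 by 0.79, while Psf1 at -0.02 and Psf2 at 0.19 missed the threshold. Also not past it were PCNA2 at 0.09, a second clamp gene, and PolD3 at -0.03, a polymerase delta subunit.

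**Figure D2:**
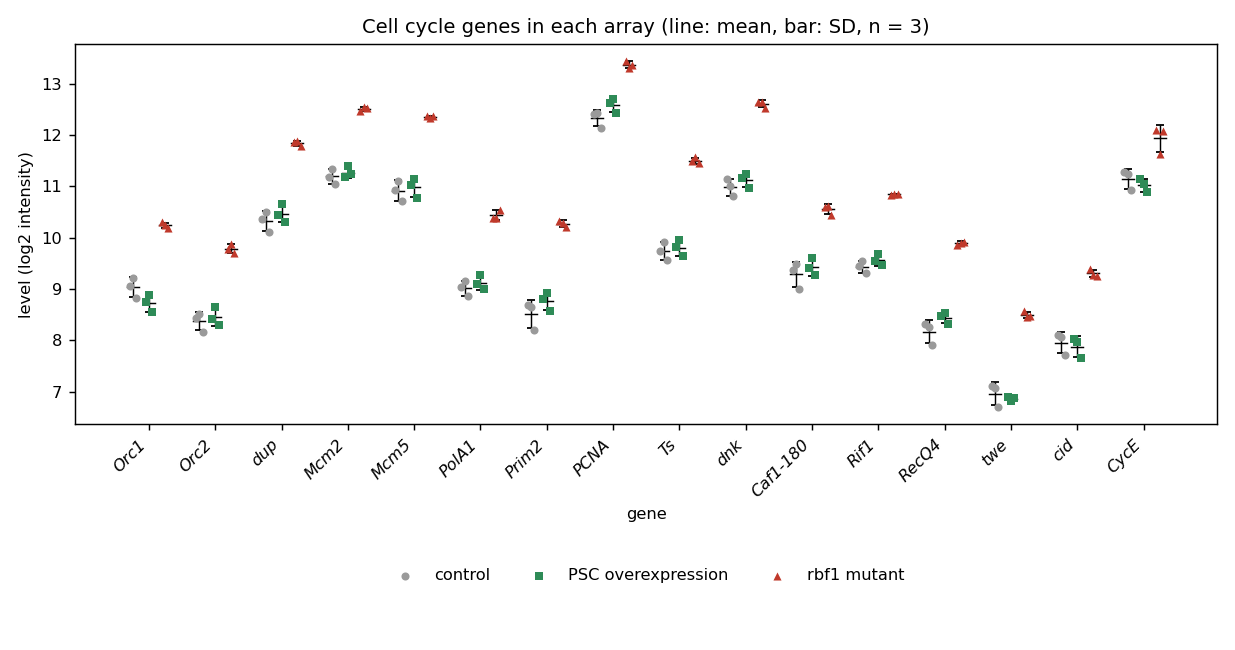
Level (y axis, log2 intensity) of 16 cell cycle genes in each array, with circles for control, squares for PSC overexpression and triangles for rbf1 mutant discs, and mean and SD of 3 arrays. In each of these genes the 3 rbf1 arrays lie above the 3 control and 3 PSC arrays, whose values lie near each other.

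Rif1, known for its part in replication timing, stood at 9.45, 9.54 and 9.31 in control arrays and at 10.83, 10.85 and 10.86 in rbf1 arrays (1.41, SE 0.074, limma adjusted p = 2.99e-05). The gene hd (humpty dumpty), needed for DNA replication, rose by 1.52 from 8.38, 8.57 and 8.29 to 9.94, 9.98 and 9.87. For both genes the 3 mutant arrays lay close together and above every other array.

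Of 18 measured nucleotide synthesis genes 4 rose, Ts, dnk, RnrL and dUTPase, and the list median was 0.05. Adsl, of purine synthesis, was lower at -0.23, a call that ended without any of control 1 to 3, rbf1 1 or rbf1 2. Ts, thymidylate synthase, stood at 9.74, 9.91 and 9.56 in control arrays and at 11.49, 11.57 and 11.46 in rbf1 arrays, 3.41-fold higher (1.77, SE 0.105, limma adjusted p = 4.35e-05). The deoxynucleoside kinase gene dnk rose by 1.63 from 11.14, 11.01 and 10.81 to 12.65, 12.65 and 12.53, RnrL, the large subunit of ribonucleotide reductase, by 1.16, and dUTPase by 0.64. Of genes of purine and pyrimidine synthesis, ras at 0.01, Paics at 0.11 and Dhod at -0.02 did not pass. Adsl stood at -0.23 and passed, but leaving out any single array other than rbf1 3 ended that call.

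Of 12 histone chaperone and variant genes, 7 rose, 6 of them with any array left out, and the median was 0.32. Caf1-105, a subunit of the assembly factor CAF-1 that places histones on new DNA, stood at 7.95, 7.99 and 7.75 in control arrays and at 9.04, 8.97 and 9.10 in rbf1 arrays (1.14, SE 0.091, limma adjusted p = 0.000156). No rbf1 array overlapped any control or PSC array. The gene asf1, whose product hands histones to CAF-1, rose by 1.09. The FACT genes Ssrp at 0.44 and dre4 at 0.40 and the variant histone gene His2Av at 0.38 rose less, while the chaperones Nap1 at 0.07, Nlp at 0.01 and Hira at 0.19 did not pass.

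Among the 10 measured RB, E2F and dREAM genes 5 rose, and Rbf was lower with the limits given above. Rbf2, the second retinoblastoma family gene, stood at 8.93, 9.08 and 8.72 in control arrays and at 9.73, 9.91 and 9.91 in rbf1 arrays (0.94, SE 0.117, limma adjusted p = 0.00152). The PSC arrays of Rbf2, at 9.20, 9.30 and 8.94, overlapped the controls and stayed below the rbf1 arrays. The MuvB gene lin-52 rose by 0.72 from 9.73, 9.72 and 9.61 to 10.49, 10.41 and 10.33, Dp by 0.42 and mip120 by 0.43. E2f2 at 0.19, mip40 at 0.12, l(3)mbt at 0.11 and mip130 at 0.03 did not pass. E2f1 and Myb were not analysed here.

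Of 9 G1 regulators 3 rose, CycE, Cdk2 and Skp2, and the other 6 did not pass. CycE stood at 11.28, 11.25 and 10.93 in control arrays and at 12.11, 11.63 and 12.08 in rbf1 arrays (0.79, SE 0.146, limma adjusted p = 0.0109), with rbf1 2 the lowest mutant array but above every other array. Its kinase Cdk2 rose by 0.95, and Skp2, a subunit of an SCF ubiquitin ligase, rose by 1.02 from 10.42, 10.61 and 10.35 to 11.49, 11.51 and 11.44. CycD at -0.17 and Cdk4 at -0.14, the pair that acts earlier in G1, did not pass.

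**Figure D3:**
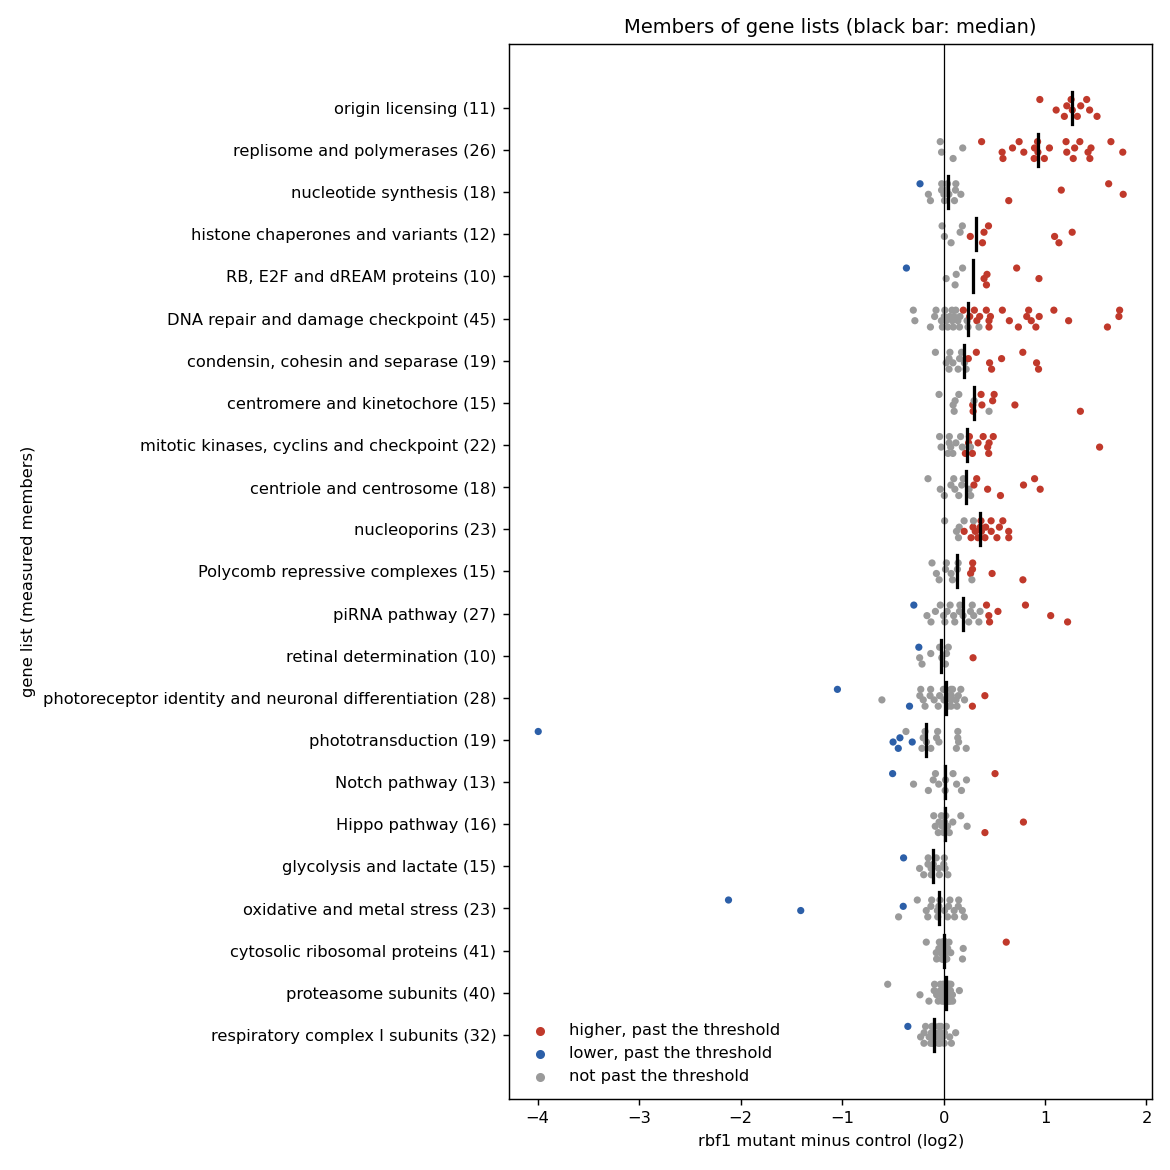
Difference between rbf1 mutant and control discs (x axis, log2) of each measured member of 23 gene lists (rows), red where higher and blue where lower past the threshold, with a black bar at the list median. The origin licensing genes all lie near or above 1, most mitotic and nucleoporin genes lie between 0 and 1, and ribosomal protein and proteasome genes lie around 0.

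Of 45 measured DNA repair and checkpoint genes 22 rose, 17 of them with any array left out, and the median was 0.24. WRNexo, the fly relative of the Werner exonuclease, stood at 10.46, 10.56 and 10.22 in control arrays and at 12.23, 12.13 and 12.08 in rbf1 arrays (1.74, SE 0.095, limma adjusted p = 3.1e-05), and the helicase gene RecQ4 rose by 1.73 from 8.32, 8.26 and 7.91 to 9.86, 9.90 and 9.93. In both the rbf1 arrays lay above all other arrays. The gene timeout rose by 1.62, the fork checkpoint mediator gene Claspin by 1.23 and the mismatch repair gene Pms2 by 0.65. The checkpoint kinase gene grp at 0.16 and the nucleotide excision repair gene Xpc at 0.01 did not pass.

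Of 19 condensin, cohesin and separase genes 8 rose, 7 of them with any array left out, with a median of 0.21. The acetyltransferase gene eco, which locks cohesin in place, stood at 9.73, 9.89 and 9.82 in control arrays and at 10.77, 10.71 and 10.76 in rbf1 arrays (0.94, SE 0.058, limma adjusted p = 5.19e-05). The condensin gene glu rose by 0.92 and SMC2 by 0.57, and the separase subunit gene thr by 0.78. For glu the PSC arrays, at 10.45, 10.49 and 10.31, lay between the control arrays at 9.91, 10.06 and 9.80 and the rbf1 arrays at 10.81, 10.85 and 10.87.

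Of 15 centromere and kinetochore genes 8 rose, with a median of 0.30. The number was 4 without control 1 or rbf1 2 and 5 without control 3, rbf1 1 or rbf1 3, and 5 with the glue covariate. The centromeric histone gene cid stood at 8.09, 8.06 and 7.72 in control arrays and at 9.39, 9.28 and 9.24 in rbf1 arrays (1.35, SE 0.124, limma adjusted p = 0.00032), and the mutant arrays were above all others. Its loading factor cal1 rose by 0.48 and the inner kinetochore gene Nnf1b by 0.70. Mis12, a further member of that complex, rose by 0.50 with PSC arrays at 8.34, 8.48 and 8.17 that overlapped its rbf1 arrays at 8.59, 8.43 and 8.31.

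Of 30 listed mitotic kinase, cyclin and checkpoint genes 22 were measured, and CycA, Cdk1, stg, aurA and polo were among those not analysed here. Of the 22 measured genes 11 rose, with a median of 0.23. The number was 4 without rbf1 2, 5 without control 3, 6 without control 2, rbf1 1 or rbf1 3, and 7 with centred arrays or the glue covariate. The Cdc25 phosphatase gene twe, known for its part in meiosis, stood apart at 7.11, 7.07 and 6.70 in control arrays and 8.57, 8.46 and 8.47 in rbf1 arrays (1.54, SE 0.102, limma adjusted p = 6.73e-05). Of the chromosomal passenger complex, borr rose by 0.43 and Incenp by 0.49. The gene fzy, an activator of the anaphase promoting complex, rose by 0.45, but with the mean of its 3 probe sets it stood at 0.17 and did not pass (limma adjusted p = 0.0941). The mitotic cyclin gene CycB stood at 12.19, 12.19 and 11.99 in control arrays and at 12.42, 12.39 and 12.36 in rbf1 arrays without passing (0.26, limma adjusted p = 0.0573).

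Of 18 centriole and centrosome genes 7 rose, 6 of them with any array left out, with a median of 0.22. The duplication factor ana2 stood at 8.95, 8.89 and 8.70 in control arrays and at 9.78, 9.77 and 9.67 in rbf1 arrays (0.90, SE 0.077, limma adjusted p = 0.000215), with no overlap. Cp110, a cap of the growing centriole, rose by 0.95 and spd-2, a scaffold of the pericentriolar material, by 0.79. Of 18 spindle, kinesin and cytokinesis genes 4 rose, which were 2 without rbf1 2 or rbf1 3. The minus-end kinesin gene ncd rose by 0.64 and the spindle gene mars by 0.77.

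Of 23 nucleoporin genes 17 rose and the other 6 did not pass, all 23 had a positive difference, and the median was 0.36. The rises held with any array left out for 12 genes, and 12 also rose with the glue covariate and 13 with centred arrays. The median member stood 0.05, 0.06 and -0.11 from its control mean in control 1 to 3, 0.12, 0.18 and 0.07 in the PSC arrays, and 0.34, 0.33 and 0.36 in rbf1 1 to 3. So all 3 rbf1 arrays lay above the other 6 in the list median, and 18 of 23 genes did so one by one, beside 9.5% of all genes.

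Nup54, of the central channel, stood at 10.06, 10.08 and 9.89 in control arrays and at 10.56, 10.56 and 10.55 in rbf1 arrays (0.55, SE 0.063, limma adjusted p = 0.000955). The mutant arrays lay above the controls and the PSC arrays, which stood at 10.15, 10.20 and 10.05. Nup160 of the outer ring rose by 0.64, Nup37, also of the outer ring, by 0.58 and Nup358 of the cytoplasmic filaments by 0.37. Nup35 at 0.01, Nup153 at 0.15 and Nup50 at 0.20 did not pass.

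**Figure D4:**
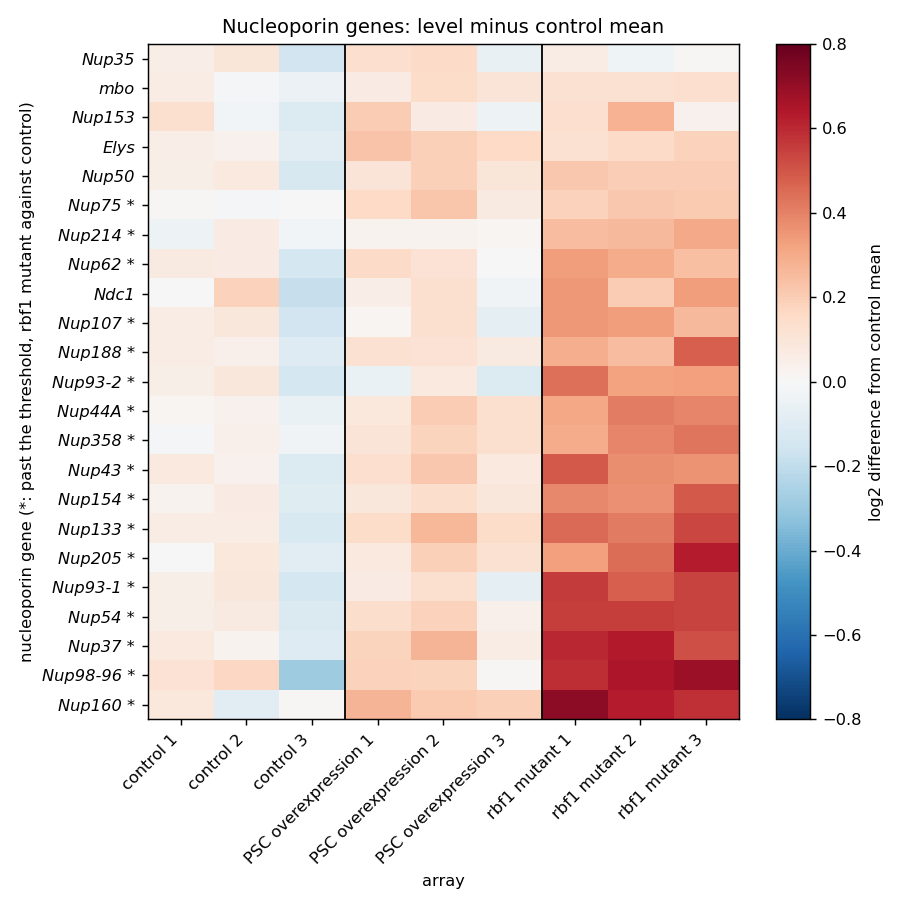
Level of 23 nucleoporin genes (rows) in each array (columns) as the log2 difference from the control mean of the gene, with an asterisk for genes past the threshold. The 3 rbf1 columns are the darkest red, the PSC columns are pale red, and the control 3 column is mostly blue.

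Of 15 Polycomb genes 5 rose, which were 3 without rbf1 3, with a median of 0.14. Those that held with any array left out were Su(z)12 and esc of Polycomb repressive complex 2 and Sfmbt of the Pho complex. esc stood at 9.07, 9.22 and 8.92 in control arrays and at 9.93, 9.87 and 9.76 in rbf1 arrays (0.78, SE 0.102, limma adjusted p = 0.00193), and Su(z)12 rose by 0.48. Of 13 histone methyltransferase and demethylase genes 4 were higher, 3 of them with any array left out, with the H4K20 enzyme gene Set8 at 0.81 and NSD at 0.68. Set8 was split by genotype: the PSC arrays, at 8.58, 8.76 and 8.80, lay below the control arrays at 9.21, 9.28 and 9.09, and the rbf1 arrays at 9.88, 9.99 and 10.14 above them.

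Of 26 heterochromatin and remodeller genes 4 rose, with a median of 0.09. Chd3, a nucleosome remodelling ATPase gene, rose by 0.98 from 8.12, 8.20 and 8.19 to 9.13, 9.19 and 9.13 (SE 0.070, limma adjusted p = 9.72e-05), and no rbf1 array overlapped any other. polybromo of the PBAP complex rose by 0.61, Iswi by 0.34 and dom by 0.32, while mor at 0.05 did not pass. Of 13 insulator genes 4 rose, which were 2 without control 3, rbf1 1 or rbf1 2 and with centred arrays or the glue covariate, namely Ibf2 at 0.81 and BEAF-32 at 0.34.

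Of 27 piRNA pathway genes 7 rose and 1 was lower, a call lost without control 1, control 2, rbf1 2 or rbf1 3, and 4 of the rises held with any array left out. The helicase gene spn-E stood at 8.26, 8.26 and 8.07 in control arrays and at 9.49, 9.32 and 9.44 in rbf1 arrays (1.22, SE 0.067, limma adjusted p = 3.19e-05), and the cochaperone gene shu rose by 0.81 from 9.62, 9.54 and 9.59 to 10.42, 10.39 and 10.36. In both the rbf1 arrays lay above all control arrays. The Tudor domain gene tej rose by 1.06 from 4.60, 4.69 and 4.64, within the levels of the lowest group of genes, to 6.02, 5.54 and 5.54, and vret by 0.42. The number of rises was 4 without control 2 or control 3.

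Of 19 other germline and meiosis genes 2 rose, or 10.5%, beside 6.31% of all genes. tut, a gene of the male germline, rose by 1.09 from 8.48, 8.74 and 8.74 to 9.81, 9.75 and 9.67 (SE 0.092, limma adjusted p = 0.000195). The polo inhibitor gene mtrm of the oocyte stood at 4.53, 5.07 and 4.72 in control arrays and at 6.13, 5.97 and 5.96 in rbf1 arrays (1.25, SE 0.134), and its PSC arrays, at 5.99, 5.72 and 5.97, were high too. Of 10 testis tMAC and meiotic arrest genes tomb rose by 0.51 and achi by 0.66 with any array left out. topi stood at 0.76, a call lost without rbf1 2 (limma adjusted p = 0.0518), and aly at 0.03, comr at 0.11 and can at 0.13 did not pass. The control means of tomb at 4.65 and topi at 4.21 lay within the levels of the lowest group of genes. Phf7, a chromatin reader of the male germline, rose by 1.42 to 11.29, 11.35 and 11.23.

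Of 10 retinal determination genes 2 passed, beside 10.2% of all genes: tsh rose by 0.29 and toy was lower by 0.24. The toy call was lost without rbf1 2 (limma adjusted p = 0.0549). With the mean of its 3 probe sets toy stood at -0.265 and did not pass (limma adjusted p = 0.1545). Also not past the threshold were eya at 0.05, so at -0.04 and dac at -0.21. Of 19 furrow and proneural genes 2 were lower, which was 1 without any single array other than control 3. That gene, E(spl)m4-BFM, a Bearded family gene that Notch switches on, stood at 12.50, 12.53 and 12.46 in control arrays and at 12.10, 12.17 and 12.08 in rbf1 arrays (-0.38, SE 0.048, limma adjusted p = 0.00156). The difference was small against the level, but the 3 mutant arrays lay below all others, with the PSC arrays at 12.56, 12.62 and 12.51.

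Of 19 listed Notch genes 13 were measured, and N, Dl, Ser and Su(H) were among those not analysed here. Within the 13 genes 1 rose and 1 fell, both of the Enhancer of split complex. E(spl)m5-HLH, a repressor that Notch switches on, fell by 0.50 from 8.58, 8.60 and 8.42 to 8.03, 8.02 and 8.04 (SE 0.075, limma adjusted p = 0.00391). E(spl)m6-BFM rose by 0.51 from 4.69, 4.38 and 4.45, within the levels of the lowest group of genes, to 5.13, 4.90 and 5.01. E(spl)m4-BFM, which fell by 0.38 as given above, is a further gene of the complex. The other 6 measured genes of the complex did not pass. E(spl)m7-HLH stood at -0.30, E(spl)malpha-BFM at -0.24 and E(spl)m2-BFM at -0.15. E(spl)m3-HLH stood at -0.10, E(spl)mbeta-HLH at -0.08 and E(spl)mdelta-HLH at -0.03. In E(spl)m7-HLH and E(spl)malpha-BFM all 3 rbf1 arrays lay below all 6 other arrays, as did 6.1% of all genes. In the rest of these 6 genes the rbf1 arrays overlapped the control arrays. Of these 6, the ones outside the naming rule were chosen after their values were seen.

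Of 16 EGF receptor and Ras genes, grk, an EGF ligand gene known from the oocyte, rose by 0.58, with PSC arrays at 7.96, 8.03 and 8.11 as high as its rbf1 arrays at 8.05, 8.03 and 8.21. The receptor's ubiquitin ligase gene Cbl stood at -0.45 in the probe set used and at 0.27 in its other probe set, and with the mean of both it did not pass (-0.09, limma adjusted p = 0.436). Of 16 BMP and activin genes the ligand gene daw fell by 1.14 from 9.15, 9.21 and 9.51 to 8.28, 8.13 and 8.06, with the PSC arrays lower still at 7.82, 7.23 and 7.93, and the receptor gene put rose by 0.21. Of 18 JAK/STAT and insulin genes rictor alone rose, by 0.32, and of 16 Hippo genes CycE rose, while vg at 0.41 kept its call only without control 3 among the single arrays left out. Of 24 listed Hedgehog and Wnt genes only 10 were measured, and wg, fz, fz2, arr, dsh and arm were among those not analysed here. Of the 10 measured genes 0 passed by limma, where 3 had an unadjusted p under 0.05. In that list 2 passed as lower without rbf1 2 or with centred arrays, and 1 with the replicate block.

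Of 28 genes of photoreceptor identity and neuronal differentiation 2 were higher and 2 fell, 7.14% each beside 6.31% and 3.92% of all genes, with a median of 0.02. The higher number was 1 without control 2, control 3, rbf1 1 or rbf1 2 and with centred arrays or the glue covariate. The transcription factor gene gl at 0.07 and elav, named as the pan-neuronal marker, at 0.15 did not pass. Snap25, of the synaptic vesicle fusion machinery, stood at 8.50, 8.67 and 8.92 in control arrays and at 7.57, 7.97 and 7.41 in rbf1 arrays (-1.05, SE 0.200, limma adjusted p = 0.0126). Its PSC arrays, at 7.79, 8.42 and 7.88, were low as well and overlapped the rbf1 arrays. The sodium pump subunit gene nrv3 fell by 0.34, and Appl, the fly amyloid precursor, rose by 0.41.

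Of 28 listed phototransduction genes 19 were measured, and ninaE, norpA and ninaC were among those not analysed here. Of the 19 measured genes 5 fell, where 3.92% of all genes fell, with a median of -0.17. The 5 falls held with any array left out, and without control 3 a further gene passed as higher. The kinase gene inaC stood at 8.91, 8.89 and 9.15 in control arrays and at 8.41, 8.55 and 8.49 in rbf1 arrays (-0.50, SE 0.077, limma adjusted p = 0.00468), but its PSC arrays, at 8.44, 8.48 and 8.56, were as low. The scaffold gene inaD fell by 0.43, the rhodopsin phosphatase gene rdgC by 0.45, or by 0.26 as the mean of its 2 probe sets, and Gbeta76C, a subunit of the G protein of the eye, by 0.31. Arr1 at -0.06, rdgA at 0.14 and Galphaq at 0.14 did not pass.

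The fifth gene, inaE, a diacylglycerol lipase gene, was read by a probe set that differed from the others of the gene. It stood at 7.93, 7.81 and 7.82 in control arrays and at 3.71, 4.02 and 3.85 in rbf1 arrays, where it fell by 3.995 on the log2 scale (SE 0.087, limma adjusted p = 1.68e-07). The mutant arrays were within the levels of the lowest group of genes, so no fold is given, and the PSC arrays had a mean of 8.09. The other 4 probe sets of inaE stood between -0.61 and 0.12, and the mean of all 5 gave -0.96. Which part of the transcript each probe set reads was not analysed here.

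Of 41 cytosolic ribosomal protein genes 1 rose, RpS5b at 0.62, and the list median was 0.008; without rbf1 1 another passed as lower. RpS5b stood at 8.62, 8.49 and 8.68 in control arrays, at 9.39, 9.17 and 9.08 in rbf1 arrays and at 7.99, 8.23 and 8.13 in PSC arrays, so the altered groups lay on either side of the controls. Of 40 proteasome genes 0 passed by limma and 2 had an unadjusted p under 0.05. Of 32 tRNA synthetase genes 0 passed by limma and 4 had such a p. Of 32 complex I genes ND-B14.5B fell by 0.35, the median was -0.09, and 2 passed as lower without control 3. The gene tko, which encodes a mitochondrial ribosomal protein under another kind of name, fell by 1.30 from 11.53, 11.44 and 11.41 to 10.23, 10.18 and 10.07 (SE 0.063, limma adjusted p = 2e-05).

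Of 15 glycolysis genes Pfk was lower by 0.39, and the median was -0.10. That call ended with the glue covariate or when any single array other than control 3 was left out. Without control 3 the number of lower genes was 3. The median glycolysis member stood 0.05, 0.12 and -0.17 from its control mean in control 1 to 3. In rbf1 1 to 3 it stood at -0.10, -0.14 and -0.10, above control 3, and in the PSC arrays at -0.12, -0.14 and -0.25. Of 22 maltase, sugar transport and digestion genes 2 rose and 4 were lower, which was 2 without control 1 or rbf1 1. The maltase gene Mal-A1 fell by 1.93 from 8.28, 8.63 and 7.62 to 5.55, 6.46 and 6.72, and its PSC arrays at 6.21, 6.25 and 5.61 were as low. The glucose transporter gene Glut1 fell by 0.73 from 9.26, 9.34 and 9.46 to 8.64, 8.67 and 8.57, and its other probe sets fell further, to give -1.11 as the mean of 3. Of 21 lipid genes 1 rose, or 2 without control 1 or control 3, and 4 were lower. The lower number was 1 with the glue covariate or without any single array other than control 2, and Lsd-2, a lipid droplet coat gene at -0.90, held with any array left out.

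Of 23 oxidative and metal stress genes 3 were lower, 2 of them metallothionein genes whose calls held with any array left out. MtnB stood at 7.81, 7.52 and 7.31 in control arrays and at 5.75, 5.29 and 5.25 in rbf1 arrays (-2.12, SE 0.176, limma adjusted p = 0.000188), and MtnD fell by 1.41 from 6.90, 7.18 and 6.80 to 5.68, 5.39 and 5.58. In both the mutant arrays lay below all others.

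Of 81 cytochrome P450 genes 2 were higher, or 1 without control 1, and 7 were lower, 5 of these with any array left out. The shares were 2.47% higher and 8.64% lower, beside 6.31% and 3.92% of all genes. Cyp6d2 stood at 9.07, 9.25 and 9.30 in control arrays and at 7.80, 8.13 and 7.90 in rbf1 arrays (-1.26, SE 0.115, limma adjusted p = 0.000293), and Cyp6a20 fell by 1.21. The PSC arrays of both, at 7.55, 7.43 and 7.78 for Cyp6d2 and 4.29, 4.09 and 4.50 for Cyp6a20, were low too. Of 34 glutathione S-transferase genes 2 were higher (5.88%) and 6 lower (17.6%). GstE5 at 0.52 and GstD2 at -0.73 held with any array left out. The lower number was 3 without control 3 or rbf1 1, 2 without rbf1 2 or with the glue covariate and 1 without rbf1 3, and the higher number 1 without control 1, rbf1 1 or rbf1 2. Of 105 cuticle protein genes 1.90% were higher and 8.57% lower. The higher number was 2, or 1 without any single array other than rbf1 3. In the same list 9 were lower, which were 4 without control 1, 5 without rbf1 1 and 3 with the glue covariate or when control 2, rbf1 2 or rbf1 3 was dropped; TwdlV at -0.52 held in all of these.

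Among apical matrix and chitin genes, 5 of 29 were lower, which were 3 without control 1, rbf1 1, rbf1 2 or rbf1 3. tyn, a zona pellucida domain gene, stood at 11.31, 11.09 and 11.47 in control arrays and at 10.41, 10.32 and 10.24 in rbf1 arrays (-0.97, SE 0.143, limma adjusted p = 0.00381), and dyl of the same class fell by 0.82 and the chitin synthase gene kkv by 0.27. The PSC arrays were low for tyn and dyl, at 10.71, 10.34 and 10.88 and at 6.03, 6.02 and 6.04. Of 56 gustatory receptor genes Gr64a rose by 1.90 and Gr64f by 0.65 and Gr61a fell by 0.91. Without rbf1 1 or rbf1 2 another passed as lower. The shares were 3.57% higher and 1.79% lower, below the 6.31% and 3.92% of all genes. In Gr64a the PSC arrays at 6.68, 6.67 and 6.25 lay beside the rbf1 arrays at 6.29, 6.29 and 6.09, and the controls at 4.40, 4.11 and 4.46 lay within the levels of the lowest group of genes. Of 56 odorant receptor genes 0 passed by limma and 5 had an unadjusted p under 0.05.

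Markers of other cell types were read on the same arrays, and their part in these results was not tested. Of 12 glia genes 3 rose. The mean of 4 glia markers was 10.79 to 10.83 in control arrays and 10.99 in each rbf1 array. repo, the defining transcription factor, stood at 9.33, 9.39 and 9.33 in control arrays and at 9.92, 9.82 and 9.88 in rbf1 arrays (0.52, SE 0.047, limma adjusted p = 0.000274), with nrv2 at 0.38 and htl at 0.32. The list median was -0.05, with loco at -0.09 among the genes that did not pass. Of 16 haemocyte genes 3 were lower (18.75%), beside 3.92% of all genes. The number was 1 without control 2, rbf1 1 or rbf1 2, and NimC2 at -1.08 held with any array left out. The haemocyte markers lay at 10.05 to 10.43 in control arrays and at 9.64 to 10.08 in rbf1 arrays as a mean of 7 genes.

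The ring gland lies near the discs and makes ecdysone. Its markers dib, sad and nvd had means of 7.68, 8.30 and 7.25 in control arrays and 9.15, 8.86 and 9.69 in rbf1 arrays, so the 3 mutant arrays were higher. In the list of 12 genes the median was 0.72 and dib alone passed, at 1.18, a call that ended with each of the 6 arrays left out in turn, with centred arrays and with the glue covariate. Without control 2, 3 genes passed. sad stood at 1.48 and spok at 1.63 without passing. The PSC arrays were high too. The median member of the list stood 0.34, 1.31 and 1.02 above its control mean in PSC 1 to 3. In rbf1 1 to 3 it stood 0.70, 0.32 and 1.15 above. Of the 12 genes 0 lay above all 6 other arrays in all 3 rbf1 arrays, beside 9.5% of all genes. Of 11 salivary genes sens-2 rose by 0.35, the other 10 did not pass, and the list median was -2.20. Single arrays of both groups differed widely. The median salivary member stood -4.07, 2.32 and 2.01 from its control mean in control 1 to 3. In rbf1 1 to 3 it stood at -4.59, 0.775 and -3.56.

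The largest rise among the genes past the threshold was that of CG3588, whose function is not given in the files. CG3588 stood at 5.65, 5.57 and 5.42 in control arrays and at 10.87, 11.15 and 11.37 in rbf1 arrays, 48.0-fold higher (SE 0.158 on the log2 scale, limma adjusted p = 9.21e-07). Its PSC arrays, at 9.66, 10.13 and 9.68, were nearly as high, its other probe set stood at 0.34 and the mean of both at 2.96. CG14419, 2 measured places away in gene order, behaved likewise, with control arrays at 4.43, 4.09 and 4.34, rbf1 arrays at 8.02, 7.44 and 8.46 and PSC arrays at 7.32, 7.39 and 6.08. For both genes the control arrays stood apart from the rbf1 and PSC arrays alike.

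The sugar transporter gene sut2 stood at 4.96, 4.88 and 5.29 in control arrays and at 8.24, 7.80 and 8.63 in rbf1 arrays, 9.05-fold higher, with PSC arrays at 4.99, 4.90 and 4.97 (SE 0.193 on the log2 scale, limma adjusted p = 4.7e-05). UK114, of the RidA family, rose by 2.66 from 6.35, 6.57 and 6.53 to 9.27, 9.12 and 9.04, with PSC arrays at 6.04, 6.21 and 6.28. The cap-binding protein gene eIF4E3 stood at 7.37, 7.48 and 7.98 in control arrays and at 10.21, 9.70 and 9.30 in rbf1 arrays, 4.37-fold higher, with PSC arrays below the controls at 6.93, 7.12 and 6.62. The cilium motility gene lobo rose by 1.72 in the probe set used, with its other probe set at -0.17 and the mean of both at 0.78.

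CG8850 stood at 7.05, 7.04 and 6.99 in control arrays, at 3.99, 3.90 and 4.14 in rbf1 arrays and at 4.12, 3.69 and 3.87 in PSC arrays, so both altered groups were within the levels of the lowest group of genes (-3.01, SE 0.106, limma adjusted p = 2.78e-06). CG3097 stood at 10.49, 10.50 and 10.51 in control arrays, at 10.34, 10.37 and 10.34 in PSC arrays and at 8.17, 8.02 and 8.11 in rbf1 arrays (-2.40, SE 0.048, limma adjusted p = 1.56e-07). Hsc70-2, of the Hsp70 family, fell by 2.86 from 7.23, 7.48 and 7.04 to 4.05, 4.52 and 4.62, with PSC arrays at 6.71, 6.87 and 6.09 in between.

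**Figure D5:**
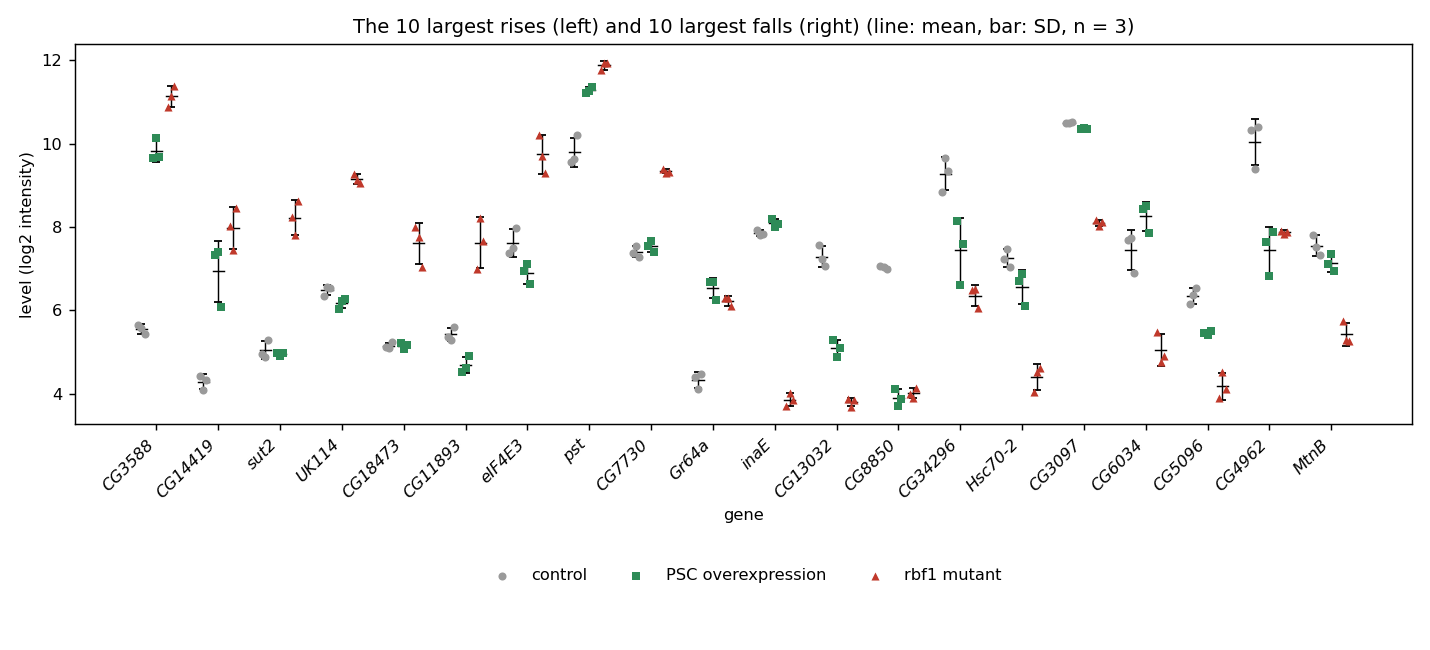
Level (y axis, log2 intensity) in each array of the 10 genes with the largest rise and the 10 with the largest fall among those past the threshold, with mean and SD of 3 arrays. For CG3588, CG14419, Gr64a and CG8850 the PSC squares lie far from the control circles and near the rbf1 triangles, while for sut2, UK114, inaE and CG3097 they lie near the controls.

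Of the 164 called genes with at least a 2-fold change, 20 had another such gene of the same direction within 2 measured places in gene order, or 12.2%. The share that gene order alone would give was not computed, so whether 12.2% is high was not tested. They made 10 pairs, 7 of rises and 3 of falls. Among them, named after their values were seen, were Gr64a with CG11594 at 1.46, eIF4E3 with Dscam4 at 1.55, Hsc70-2 with CG31157 at -1.16, and Orc2 with Kots at 1.15. The eIF4E3 partner Dscam4 stood at 0.59 as the mean of its 3 probe sets.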

How the data were processed

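RNA from eye discs was labelled and hybridised to Affymetrix Drosophila Genome 2.0 arrays, per the labels' protocols. The authors summarised the scans to 1 log2 intensity per probe set by RMA, per the submitters' processing notes, which give no version. The scale was kept. From 18952 probe sets, 183 control sets, 4720 with no gene and 402 with several were left out, and for each of 11983 genes the probe set with the highest mean over 9 arrays was used. Differences, rbf1 mutant minus control, were fitted over all 9 arrays with limma 3.58.1 (lmFit, eBayes) in R 4.3.3 and adjusted by Benjamini-Hochberg over all genes at 0.05. SE is the moderated standard error. Tested on simulated data for this comparison with 11983 genes and 200 changed, the fit recovered 79.1% of log2 changes of 0.5, 94% of 1 and 100% of 2. It made 12 false calls. The noise was drawn independently for each gene and array, so deviations that many genes of an array share were not simulated.

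The gene lists, 48 with 31 name families, were chosen with earlier results of these data known. Named genes were, per list, up to 5 called members with the smallest adjusted p and up to 3 others with the highest level, any member of lists of 12 or fewer, the 30 largest changes each way, genes near Rbf and those with the smallest p, the widest gaps or the highest level; exceptions are stated. Alternatives were array centring, probe-set means, only the 6 arrays, an intensity trend, a level filter, a replicate block, a glue gene covariate and each array left out. Promoter and protein sequences were not analysed here.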

Additional observations from a re-analysis of the deposited data

Results flagged for a closer look

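Probe sets that the annotation ties to no gene took no part in the comparisons above, and 102 of the 4720 were called higher in rbf1 mutant discs by limma at the same threshold (2.16%), with 56 lower (1.19%). Of the 402 probe sets tied to several genes, 21 were called higher (5.22%) and 27 lower (6.72%). The probe sets with no gene and the largest rises were each measured above the control arrays. Probe set 1631321_s_at rose by 4.34, from a mean of 7.52 to 11.86. Probe set 1637046_at rose by 4.004, from 6.30 to 10.30. Probe set 1630585_s_at rose by 3.16, from 7.58 to 10.74. Probe set 1635258_s_at rose by 2.74, from 9.15 to 11.89. Probe set 1631349_s_at rose by 2.46, from 6.64 to 9.11.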

How the results depend on the processing

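Rbf was lower under every alternative run, but its difference of -0.37 lost its limma call with the glue covariate (-0.38, adjusted p = 0.097) and, with single arrays left out, ran from -0.42 to -0.31; the cause was not tested. With single arrays left out, calls ran from 787 to 969 beside 1226, and lower calls from 275 to 389 beside 470; fewer samples enter these fits. With only the 5991 genes above the median level fitted, 87 were called with a change of at least 2-fold, beside 164 of all 11983 genes. That fit left out the genes at lower levels, among them the 41 rises and 41 falls of that size between 4.78 and 8.15. Of 321 named genes with a call other than Rbf, 64 lost it with the glue covariate, 46 with the 6 arrays alone, 26 with centred arrays, 8 with an intensity trend and 6 with probe-set means, and 53 to 78 with an array left out. Replicate numbers are shared between groups, and same-numbered arrays deviated from their group means with correlations of 0.59, 0.34 and 0.03. Between differently numbered arrays the correlations ran from -0.57 to 0.23. The labels name no pairing, and whether same-numbered arrays were handled together was not tested. Control 3 correlated best with rbf1 2, at 0.23. With the replicate block 1306 genes passed, 820 higher and 486 lower. With 3 arrays a group, small changes can be missed, and the median SE was 0.0753. Differences of low-level genes can be compressed, which was not tested here.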

Other observations

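Some further gene groups were drawn up after their values were seen, so their counts are descriptions with no test of the list. Of 6 histone locus body and histone mRNA genes 5 were higher, 3 of them with any array left out. Slbp, which binds the stem loop of histone mRNA, stood at 10.95, 11.01 and 10.80 in control arrays and at 12.02, 12.04 and 11.91 in rbf1 arrays (1.07, SE 0.073, limma adjusted p = 7.71e-05), and Lsm10, of the U7 particle, rose by 0.73. Of 7 telomere capping genes 4 were higher, among them HipHop at 1.11 with control arrays at 10.10, 10.10 and 9.90 and rbf1 arrays at 11.19, 11.17 and 11.06. Of 22 nuclear transport genes 10 were higher, 7 with any array left out, with the Ran exchange factor gene Rcc1 at 0.74, the pore gene Aladin at 0.72 and RanGAP at 0.42. Of 7 genes of the SMC5 and SMC6 complex 4 were higher, with MAGE at 0.81 and SMC6 at 0.43.

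Of 20 fatty acid oxidation and lipid droplet genes 9 were lower and 1 higher, and the lower number was 5 without rbf1 1, rbf1 2 or rbf1 3. Lsd-2 stood at 11.89, 11.79 and 12.07 in control arrays and at 10.95, 11.04 and 11.06 in rbf1 arrays, with the PSC arrays at 11.74, 11.73 and 11.84. The carnitine palmitoyltransferase gene whd fell by 0.85, or by 0.54 as the mean of its probe sets, and the trifunctional enzyme gene Mtp by 0.38. Of 18 intraflagellar transport and BBSome genes 3 were higher, or 1 without control 1, control 2, rbf1 1 or rbf1 2, and 3 were lower. Oseg5 fell by 1.05 from 7.16, 7.07 and 6.87 to 6.02, 5.87 and 6.05, and IFT54 fell by 0.57. Of 7 visual cycle genes 3 were lower, Cralbp at -0.38, Rdh1 at -0.35 and pinta at -0.29, and santa-maria was higher at 0.49. The santa-maria call ended without control 2, control 3, rbf1 1 or rbf1 3 or with the glue covariate, and the pinta call ended without any 1 of the 6 arrays. Fat body markers averaged 8.47, 8.15 and 9.04 in control arrays and 7.10, 7.32 and 8.53 in rbf1 arrays over 3 genes, and their part in the lipid genes' values was not tested.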
